A study of Mus musculus with 2 samples.

Results

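Dppa2, Dppa3, Dppa4, Dppa5a, Tcl1 and L1td1 are genes known for transcripts that mark mouse embryonic stem cells, early embryos and germ cells. They were taken by symbol, which gave 6 genes of 19938 measured, read by 9 of the 21789 probesets that the platform annotation assigns to exactly 1 gene. The values come from i-OSKM-ESC, a single embryonic stem cell line on a strain 129 background, made from KH2 cells, in which doxycycline switches on transgenes for 4 factors, Oct4, Sox2 with an epitope tag, Klf4 and c-Myc. Both cultures carried these transgenes and were grown on gelatin-coated plastic. One received 4 µg/mL doxycycline for 24 hours before RNA was taken, and the other was refed medium without the drug for the same time. Each condition was measured on 1 array, so no difference below has a replicate error, a test or a p-value, and 2 arrays limit the precision of every value. No culture with doxycycline but without the transgenes was analysed here.

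Dppa stands for developmental pluripotency associated, a name given for shared expression, and the proteins belong to several families. DPPA2 and DPPA4 are small nuclear proteins with a SAP domain that bind DNA, act together at the promoters of developmental and germline genes in embryonic stem cells and promote the gene programme of the embryo at its first cleavage. DPPA3, also called Stella or PGC7, protects the maternal genome from loss of methylation in the zygote and inhibits UHRF1, which guides the maintenance methyltransferase DNMT1. DPPA5A, or ESG1, is a KH-domain RNA-binding protein. TCL1 binds AKT kinases and raises their activity, and L1TD1 is an RNA-binding protein that descends from the open reading frame of a LINE-1 retrotransposon and works with LIN28. These roles are background and were not measured here.

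The members differed in direction. Of the 6 genes, 5 had a lower value and 1 had a higher value in the array labelled plus doxycycline. The expression filter asked that a gene reach 6.48, the median of all deposited log2 values, on at least 1 array, and a gene past it was called when it differed at least 2-fold. Tcl1 was called higher, where 0.92% of all 11191 genes passing the filter were. Dppa2 was called lower, where 0.768% of these genes were, and 1.69% were called in either direction. Dppa4, Dppa5a and L1td1 passed the filter and differed by less than 2-fold, and Dppa3 did not pass it. The members were chosen by their values in this same comparison as well as by name, so the counts describe them and nothing is read from their excess over the background. The median log2 difference of the 6 members was -0.29, beside -0.033 over genes passing the filter and 0.0083 over all genes.

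The targeted factors give an incomplete check of the label. Pou5f1, which encodes Oct4, had log2 values of 12.46 with and 12.05 without doxycycline, Klf4 had 9.34 and 8.91, and Myc had 10.42 and 10.07. Sox2 was lower with doxycycline, at 10.88 against 11.89, which goes against the label if its probes read the transgene. It is not known here whether the probes of the factors lie in the sequence that the transgenes carry, so every direction below rests on the labels of the 2 arrays. Of 10 embryonic stem cell markers 10 passed the filter in these cells, between 9.70 and 12.46 with and between 9.56 and 12.26 without doxycycline. Of 8 fibroblast and feeder markers 5 passed, with a range from 3.63 to 7.61 with and from 3.38 to 7.22 without. Of 6 primitive endoderm markers 6 passed (6.29 to 10.89 with, 6.62 to 11.33 without), of 6 primordial germ cell markers 6 passed (5.72 to 8.75 with, 6.61 to 9.07 without) and of 6 trophectoderm markers 1 passed (5.14 to 6.96 with, 5.22 to 6.67 without). Of these 36 marker genes, Sox2 alone differed 2-fold, at -1.01, or -0.996 after 32 was added to the linear values. Since 1.69% of all genes passing the filter were called, and some markers did not pass it, nothing is read from this count. The part of any such cells in the members' differences was not tested, and in bulk RNA fewer cells of a type and less RNA per cell cannot be told apart.

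**Figure D1:**
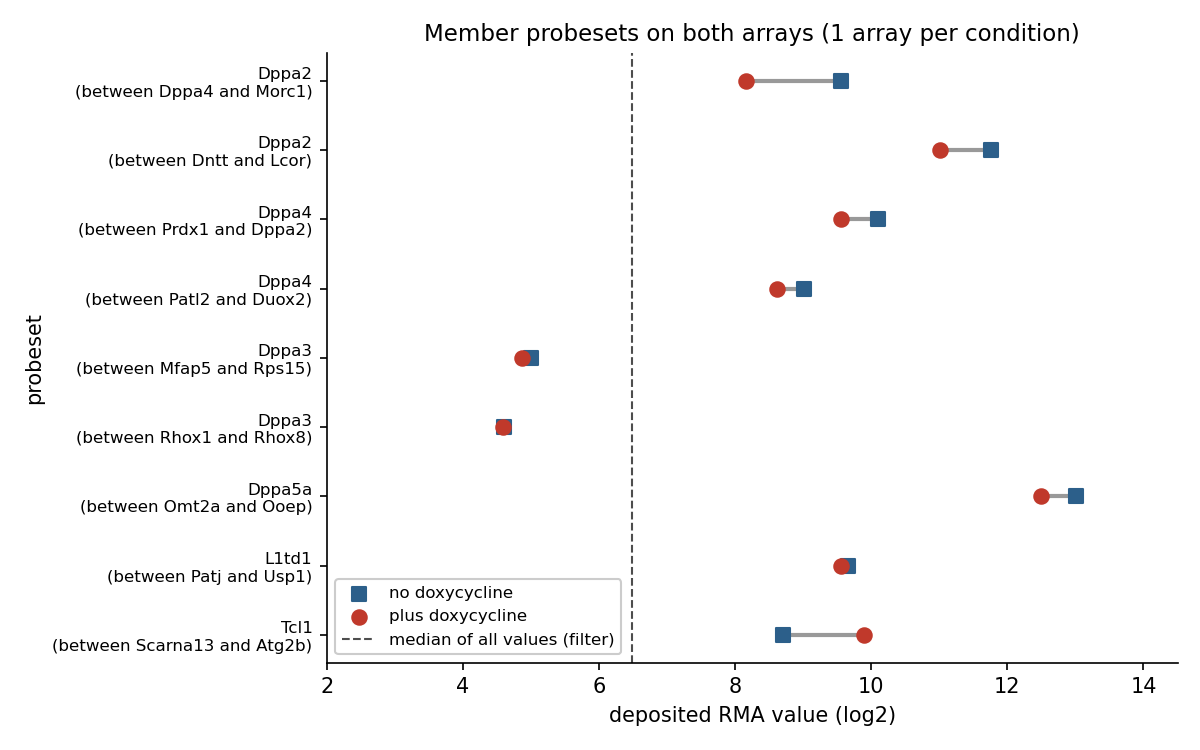
Deposited log2 value of each of the 9 probesets of the 6 genes in the array labelled no doxycycline (blue square) and the array labelled plus doxycycline (red circle), with the named probesets that flank each one in the order of probeset identifiers. The 2 Dppa3 probesets lie left of the dashed filter line at 6.48, Tcl1 is the one gene whose red circle lies right of its blue square, and the 4 probesets of Dppa2 and Dppa4 all have the red circle on the left.

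The promoter windows of Tcl1 and L1td1 run from 250 bases before to 50 bases after the RefSeq start. They are shown because the table of promoter sequences used here, from RefSeq on assembly GRCm38.p6, matched only these 2 of the 6 members. Capitals mark the match to any motif searched, and both sequences are written 5′ to 3′ along the strand of the gene, the minus strand at chr12:105222688-105222987 for Tcl1 and the plus strand at chr4:98726504-98726803 for L1td1.
Tcl1: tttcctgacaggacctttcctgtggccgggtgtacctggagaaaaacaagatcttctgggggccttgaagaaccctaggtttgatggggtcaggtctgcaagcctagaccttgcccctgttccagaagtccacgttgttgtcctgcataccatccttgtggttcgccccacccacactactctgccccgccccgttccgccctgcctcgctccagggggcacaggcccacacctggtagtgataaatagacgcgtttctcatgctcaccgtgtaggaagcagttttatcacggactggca
L1td1: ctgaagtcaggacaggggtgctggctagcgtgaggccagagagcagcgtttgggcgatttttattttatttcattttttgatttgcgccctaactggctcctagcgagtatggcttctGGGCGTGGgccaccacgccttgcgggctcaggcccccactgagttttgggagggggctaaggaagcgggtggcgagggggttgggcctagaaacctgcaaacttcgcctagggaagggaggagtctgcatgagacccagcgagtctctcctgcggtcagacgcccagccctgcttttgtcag

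Motifs of the 4 induced factors were searched on both strands of these windows. The L1td1 window held 1 match to the Klf core GGGNGTGG, at bases 119 to 126 of 300, and the Tcl1 window held 0. This motif was present in 17.6% of the 32851 promoter windows of the table. The octamer ATGCAAAT (in 1.74% of windows), the Sox core CATTGT (12.6%) and the E-box CACGTG (7.15%) had 0 matches in either window. The Oct4-Sox2 composite, which is the Sox core followed after 1 base by the octamer, had 0 matches here and in all 32851 windows. A match is a run of letters and not a binding site, and these windows leave out distal enhancers. The G and C content was 56.7% for Tcl1 and 58.7% for L1td1, beside a median of 52.7% over all windows.

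Tcl1 was the member with the largest difference. It is a coactivator of AKT with a known role in the proliferation of embryonic stem cells, and it had a log2 value of 8.70 without and 9.90 with doxycycline, on 1 probeset. The difference of 1.20 corresponds to a 2.30-fold higher value. Of the 11191 genes passing the filter, 58 had a larger positive difference. Among the 400 genes nearest to Tcl1 in mean value over both arrays, 0 had a larger one. On the other scalings tried, the Tcl1 difference lay between 1.14, after adding 32 to the linear values, and 1.25, after removal of a loess trend.

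Of the 10 measured neighbours of Tcl1, 2 passed the filter and 0 were called, with differences from -0.35 to 0.57 and a median of 0.087. With 1.69% of all genes passing the filter called, nothing can be read from a count of 0 in 2. The Tcl1b genes, a rodent cluster of close relatives that lies beside Tcl1, gave 5 measured genes of which 0 passed the filter. Tcl1b4, the nearest on one side, had 5.64 without and 6.20 with doxycycline, a difference of 0.57. Tcl1b1 had 5.80 and 6.25, a difference of 0.45, and Tcl1b3 had 4.45 and 4.10, a difference of -0.35. Tcl1b5 and Tcl1b2 had differences of 0.080 and 0.0065. Their median was 0.080, which became -0.015 after removal of a loess trend. The table has no detection call, so levels this low cannot be told from background. Bdkrb2, a bradykinin receptor gene on the other side of Tcl1, was also below the filter with a difference of 0.40.

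The PI3K-Akt pathway, which includes the kinases that TCL1 binds and genes upstream and downstream of them, was examined as a list. Of its 20 genes, 18 were measured, 18 passed the filter and 0 were called in either direction, where 1.69% of all genes were, a share too small to read anything from a count of 0 in 18. Their median difference was -0.046, or 0.0065 after removal of a loess trend. Eras, a constitutively active Ras of embryonic stem cells that stimulates PI3K, had 8.04 without and 7.46 with doxycycline, a difference of -0.58. Foxo1, a transcription factor that AKT keeps out of the nucleus, had a difference of -0.40, and Pdpk1, the kinase that activates AKT, had 0.38. Akt1 and Akt2, the binding partners of TCL1 and named here after their values were seen, had differences of 0.26 and 0.13.

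Dppa2 and Dppa4 are neighbours on the same chromosome, and both were lower in the array labelled plus doxycycline. Averaged over its 2 probesets, Dppa2 had a log2 value of 10.66 without and 9.59 with doxycycline, which is 2.10-fold lower. Of genes passing the filter, 59 had a more negative difference, and among the 400 genes nearest in mean value 2 had one. Dppa4, whose protein pairs with DPPA2, had 9.56 without and 9.08 with doxycycline, a difference of -0.47 or 1.39-fold. Among the 400 genes nearest to Dppa4 in mean value, 28 had a more negative difference.

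The size of the Dppa2 difference depended on the probeset. Identifiers of this array run largely along chromosomes, because only 2.61% of 20397 probesets with both neighbours on 1 chromosome were assigned a gene on another. One Dppa2 probeset lies between those of Dppa4 and Morc1, the genes that flank Dppa2 in the gene order. It had 9.56 without and 8.16 with doxycycline, a difference of -1.40 or 2.63-fold lower. The other lies between Dntt and Lcor, genes of another chromosome, and had 11.76 and 11.01, a difference of -0.75 or 1.68-fold lower. The call of Dppa2 as 2-fold lower was made on the mean of both. It also held for the probeset between Dppa4 and Morc1 alone and was lost with the brighter probeset alone. The gap of 0.65 between the 2 differences was exceeded in 14 of 477 genes with exactly 2 probesets passing the filter, whose median gap was 0.095.

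Dppa4 also had a probeset among genes of another chromosome. The probeset next to that of Dppa2, whose other flank is Prdx1, a gene of another chromosome, had 10.10 without and 9.55 with doxycycline. This is a difference of -0.55. The one between Patl2 and Duox2, genes of another chromosome, had 9.01 and 8.62, a difference of -0.39. All 4 probesets of Dppa2 and Dppa4 were lower in the array labelled plus doxycycline. In all, 3 of the 9 member probesets had no flanking probeset on the chromosome of their gene. Whether such probesets read the named gene, a copy of it elsewhere in the genome or both was not tested.

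**Figure D2:**
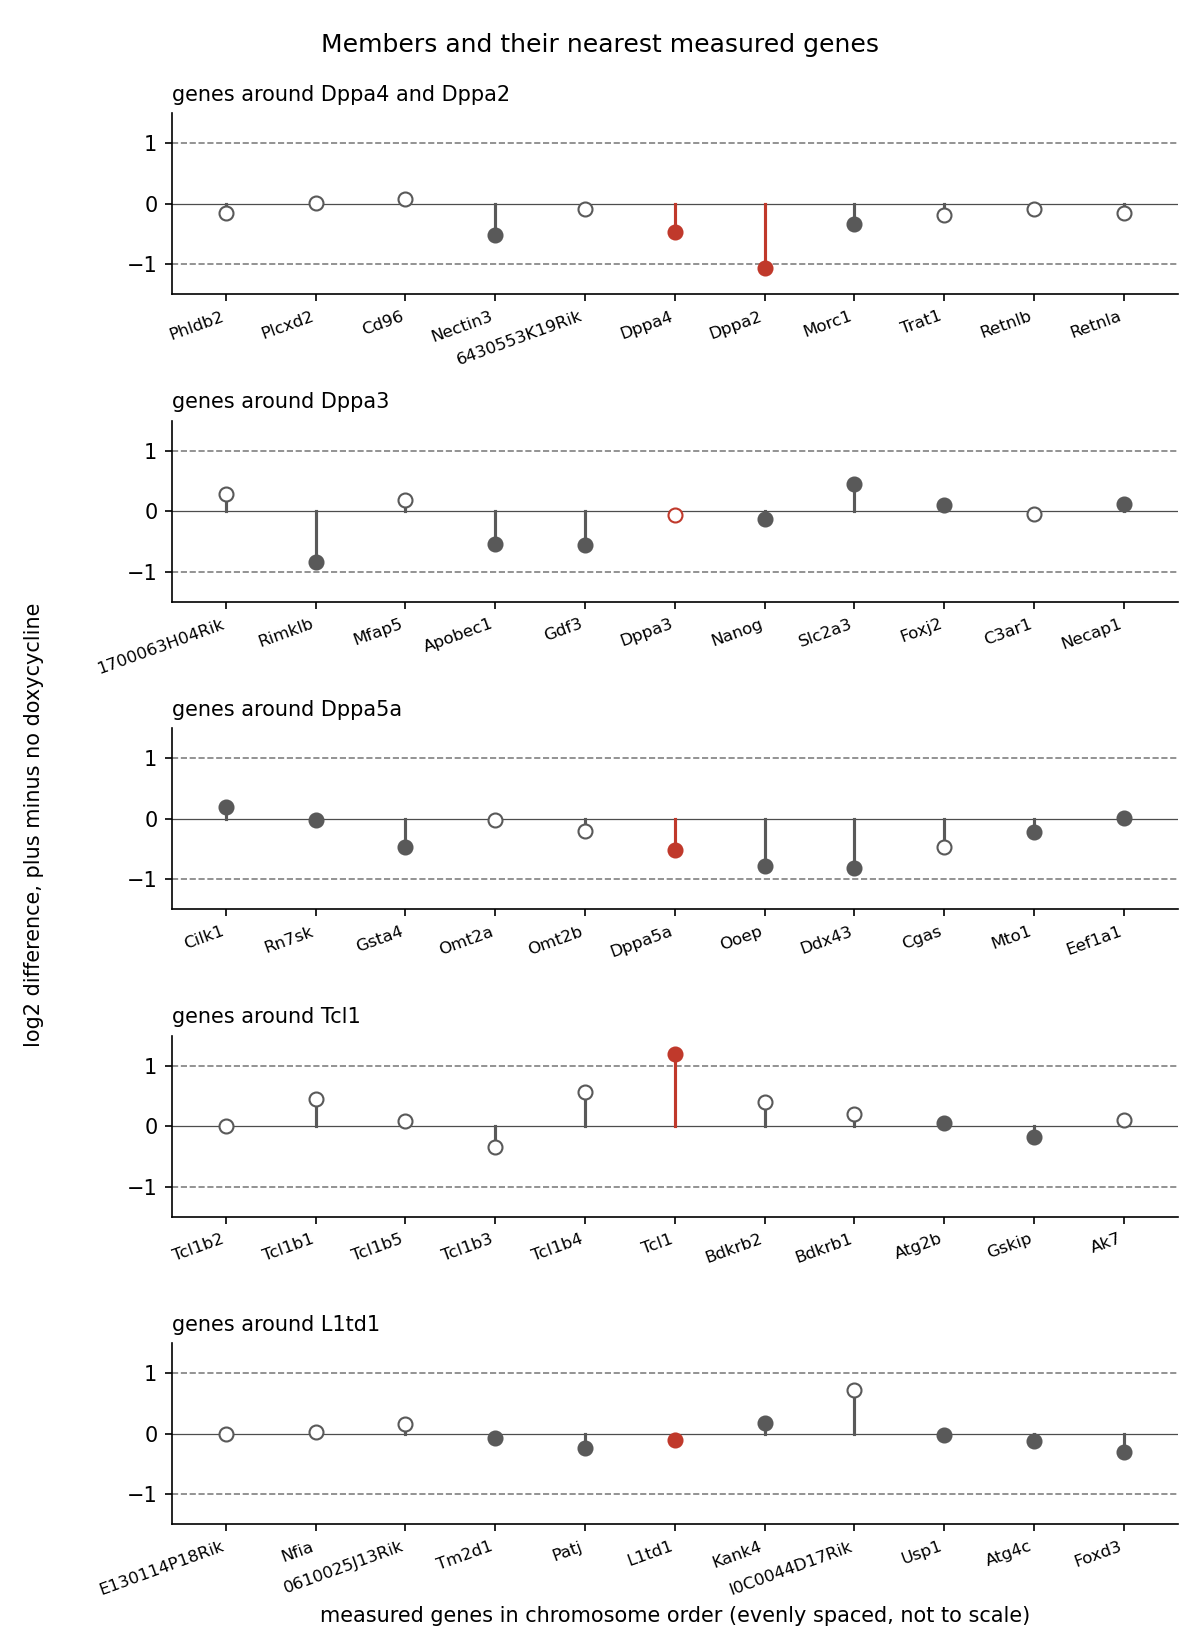
Log2 difference, plus minus no doxycycline, of each member (red) and of the nearest measured genes (grey), evenly spaced in chromosome order, with dashed lines at 2-fold. Each window holds 5 genes on either side of a member, and Dppa2 is drawn inside the window of Dppa4 without one of its own. Filled circles passed the expression filter and open circles did not. No grey circle reaches a dashed line, and the Dppa5a panel shows lower values in Ooep and Ddx43 beside it.

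The genes around the Dppa2 and Dppa4 pair differed less than Dppa2. Morc1, a germline gene beside Dppa2, had 7.09 without and 6.76 with doxycycline, a difference of -0.33. The noncoding gene 6430553K19Rik on the side of Dppa4 was below the filter, at -0.087. Of the 9 genes other than Dppa4 in the window of 5 on either side of Dppa2, 2 passed the filter and 0 were called. Their differences ran from -0.51 to 0.071 with a median of -0.12. Since 1.69% of all genes passing the filter were called, nothing is read from 0 in 2.

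DPPA2 and DPPA4 are known to work with the MLL and polycomb complexes at bivalent promoters, which carry activating and repressive histone marks together. Of 14 subunits listed, 14 were measured and passed the filter and 0 were called, with a median difference of -0.11. With 1.69% of all genes passing the filter called, nothing can be read from a count of 0 in 14. Jarid2, a substoichiometric subunit that recruits polycomb repressive complex 2, had 12.07 without and 11.14 with doxycycline, a difference of -0.93 that was just under 2-fold. The MLL complex subunit Ash2l had -0.26 and the methyltransferase gene Ezh2 had 0.23.

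Genes of the 2-cell stage and of the germline include targets that DPPA2 and DPPA4 are known to affect. Of 20 genes of the 2-cell stage, 8 had a probeset of their own, 1 passed the filter and 0 were called. Dux and the listed Zscan4 genes, named here because they had no value, were among those without a probeset of their own. The median difference of the 8 was -0.011. Usp17ld, the one that passed, had 7.59 without and 6.91 with doxycycline. It belongs to a family of close copies, and whether its probes also read those was not tested. Of 17 germline genes, 17 were measured, 14 had negative differences and 10 passed the filter, with 0 called and a median of -0.20 over the 17. Among all genes passing the filter 55.5% had a negative difference, whereas the 14 of 17 also counts genes below the filter. Of all genes passing it 1.69% were called, too few to read anything from either count of 0. Dazl, an RNA-binding protein gene of germ cells, had -0.88, Mael, which acts in transposon silencing, had -0.86, and the meiotic chromosome protein gene Hormad1 had -0.68.

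Dppa3 was the member at the bottom of the scale. One probeset lies between Mfap5, a gene of the same chromosome as Dppa3, and Rps15, a gene of another chromosome. This probeset had 4.997 without and 4.867 with doxycycline, a difference of -0.13. Its other probeset lies between Rhox1 and Rhox8, where the gene table places the pseudogene Dppa3-ps, and had 4.60 and 4.59, a difference of -0.015. Of all probesets in the table, 20.9% without and 19.5% with doxycycline were at or below the mean of the 2 Dppa3 probesets. A level this low cannot be told from background here, so the difference of -0.072 gives no direction.

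The genes on either side of Dppa3 belong to the same pluripotency cluster and passed the filter. Gdf3, a TGF-beta family ligand of embryonic stem cells, had 9.18 without and 8.62 with doxycycline, a difference of -0.56. Nanog, a core pluripotency factor, had 12.18 and 12.06, a difference of -0.13. Of the 10 measured genes in the window 7 passed the filter and 0 were called, with differences from -0.85 to 0.45 and a median of 0.025.

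The methylation machinery that DPPA3 is known to act on was examined as a list. Of 12 genes for maintenance methylation, TET enzymes and imprint protection, 11 were measured and passed the filter, and their median difference was -0.091. Of these, 0 were called, where 1.69% of all genes passing the filter were, a share too small to read anything from a count of 0 in 11. Tet2 had 10.14 without and 10.78 with doxycycline, a difference of 0.64, whereas Tet1, which encodes another enzyme oxidising methylcytosine, had -0.53. Trim28, a corepressor that protects imprints, also had -0.53. Uhrf1 and Dnmt1, named after their values were seen, had 0.010 and -0.091.

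Dppa5a lay near the top of the scale, with 99.4% of probesets at or below it without and 98.8% with doxycycline. It had 13.01 without and 12.49 with doxycycline on 1 probeset, a difference of -0.52 or 1.43-fold. Of genes passing the filter, 595 had a more negative difference. Among the 400 genes nearest in mean value, which reached down to 11.20 because few genes are as bright, 8 had a more negative one. RMA values near the top of the scale can be compressed, and whether this touched Dppa5a was not tested.

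Lower values also appeared in the gene next to Dppa5a. Ooep, which encodes a related KH-domain protein of the oocyte, had 9.18 without and 8.39 with doxycycline, a difference of -0.78. Ddx43, an RNA helicase gene beyond Ooep and named after its value was seen, had 8.81 and 7.99, a difference of -0.82. Omt2b on the other side was below the filter at -0.20. Of the 10 neighbours of Dppa5a, 7 passed the filter and 0 were called, and the median of the 10 was -0.21. Since 1.69% of all genes passing the filter were called, nothing is read from 0 in 7.

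The KH-domain relatives of Dppa5a and the maternal complex that some of them form were examined as a list. Of 10 genes, 8 were measured and 4 passed the filter, with 0 called higher and 1 called lower. Among all genes passing the filter 0.92% were called higher and 0.768% lower, and with 4 passing genes nothing is read from these counts. Khdc3, or Filia, another KH-domain gene that also acts in genome stability of embryonic stem cells, had 6.95 without and 5.82 with doxycycline, which is 2.19-fold lower, and its value with doxycycline lay under the filter. After 32 was added to the linear values its difference was -0.82 and no longer 2-fold. The median over the 8 measured was -0.066. Dppa1, the other Dppa gene with a probeset of its own, is no member and had 3.90 and 3.54, below the filter.

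L1td1 differed little. It had 9.66 without and 9.55 with doxycycline on 1 probeset, a difference of -0.11 or 1.08-fold. Among the 400 genes nearest in mean value, 152 had a more negative difference and 248 a less negative or positive one. Its neighbours Patj, a polarity scaffold gene, and Kank4 had -0.24 and 0.17. Of the 10 neighbours 6 passed the filter and 0 were called.

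The RNA-binding proteins with which L1TD1 is associated were examined as a list. Of 16 genes of LIN28 and IGF2BP partners and RNA granules, 14 were measured and passed the filter, with a median of -0.10 and 0 called. With 1.69% of all genes passing the filter called, nothing can be read from a count of 0 in 14. Tia1, a stress granule protein gene, had -0.58, Trim71, a repressor of mRNAs in stem cells, had -0.51, and Igf2bp3 had 0.37. Lin28a, which blocks maturation of let-7 microRNAs and is named here after its value was seen, had 9.56 without and 9.70 with doxycycline, a difference of 0.14.

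**Figure D3:**
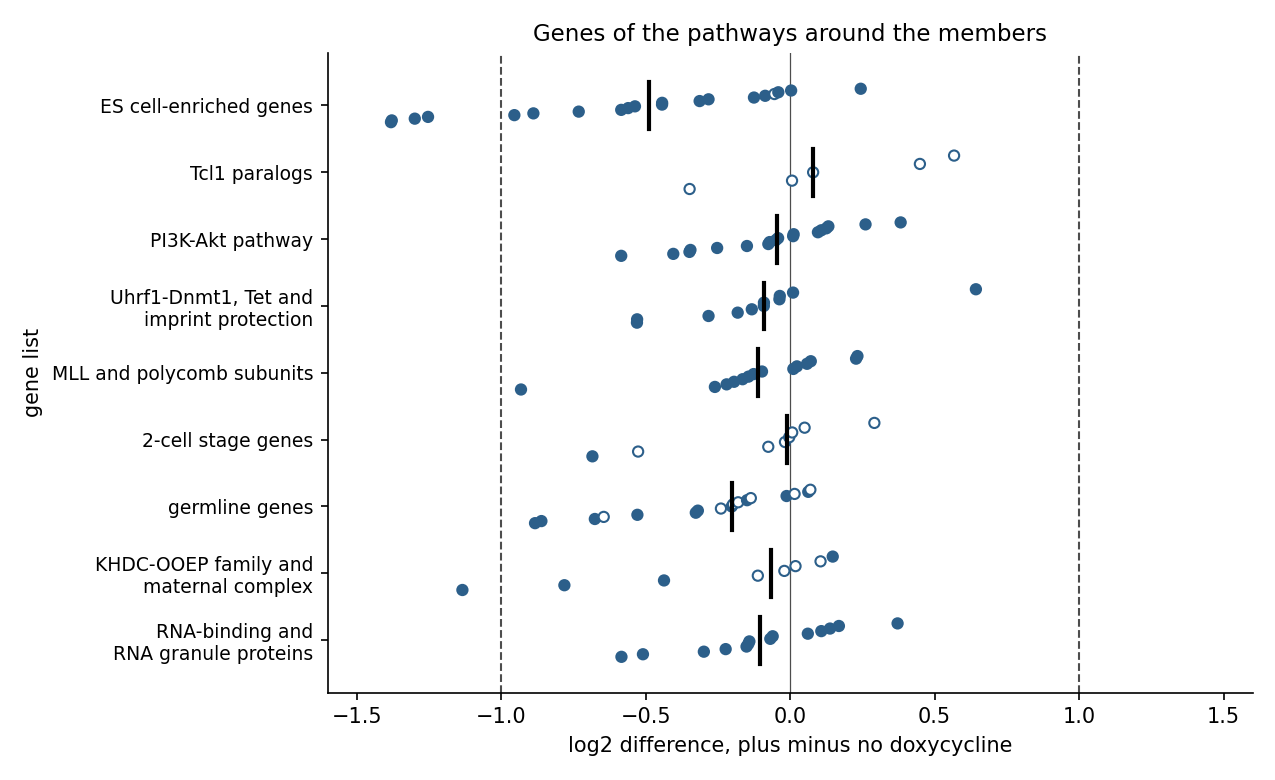
Log2 difference, plus minus no doxycycline, of each measured gene in the 9 lists around the members, with the median of each list as a black bar and dashed lines at 2-fold. Filled circles passed the expression filter and open circles did not. The 4 genes left of -1 in the first row and Khdc3 are the 5 genes called, and no gene lies right of 1.

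Other genes enriched in embryonic stem cells were examined beside the members. Of 21 such genes 20 were measured, 18 had negative differences and the median was -0.49. Among all genes passing the filter 55.5% were negative, whereas the 18 of 20 also counts a gene below the filter. Of the 19 that passed the filter, 4 were called lower and 0 higher, where 0.768% of all genes were called lower, and the others differed by less than 2-fold. Klf5 and Klf2, Krüppel-like factors of the naive state, had differences of -1.38 each. Dnmt3l, a cofactor of de novo methylation, had -1.30, and Fbxo15, an F-box protein gene used as a marker of the pluripotent state, had -1.25. This list overlaps genes already known to be lower in these arrays, so it is not independent evidence for the Dppa genes. Nr0b1 and Fgf4, named after their values were seen, were its members without a negative difference, at 0.24 and 0.0034. Over all 9 lists, 113 of 134 genes were measured, 89 passed the filter, 5 were called lower and 0 higher. Among all genes passing the filter 0.768% were called lower and 0.92% higher, and the lists were chosen with earlier results known.

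**Figure D4:**
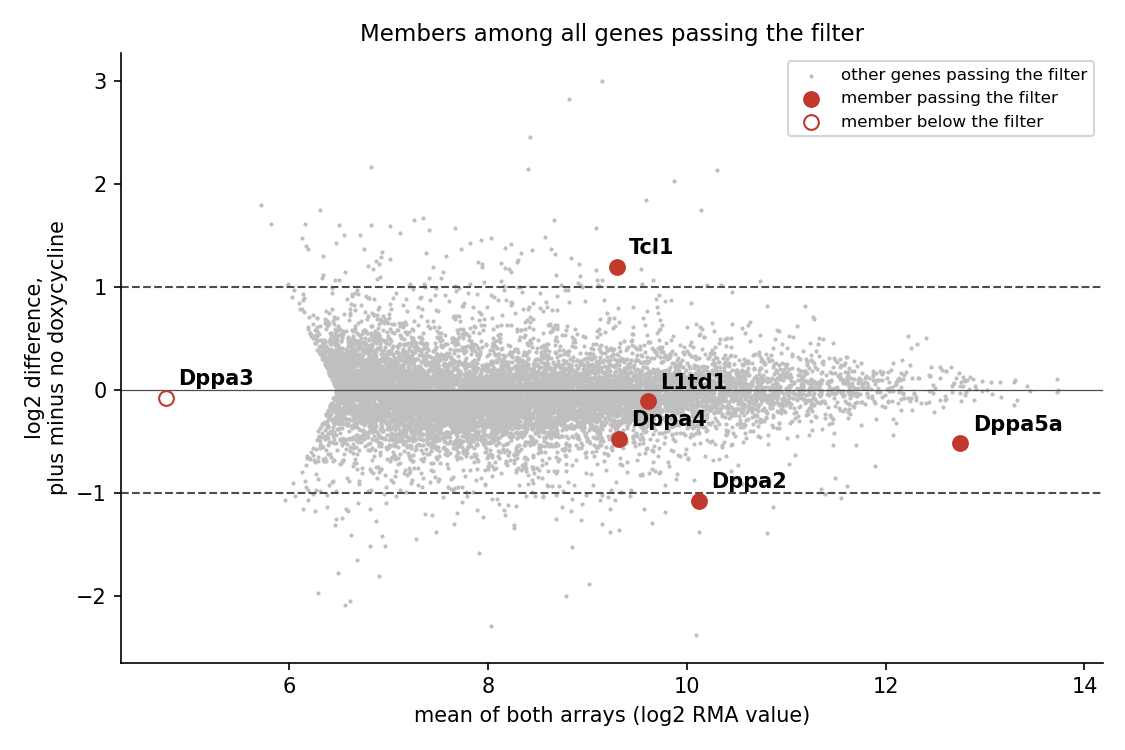
Log2 difference, plus minus no doxycycline, against the mean of both arrays for the genes passing the filter (grey) and the 6 members (red, open for Dppa3, which did not pass). Tcl1 lies at 1.20 above the upper dashed line at 2-fold, Dppa2 at -1.07 just below the lower one, Dppa5a stands low among the bright genes at the right and L1td1 lies in the middle of the cloud.

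Genes with the most similar pair of values were found by the Euclidean distance between log2 values over the 2 arrays, among genes passing the filter. With 2 arrays this measure says only that a gene had a like value on each. Nearest to Tcl1 were Plet1 at a distance of 0.23 and Prkaa2 at 0.28, which were themselves higher by 1.08 and 1.01. Nearest to Dppa2 were Fblim1 at 0.047 and Acp6 at 0.16, with differences of -1.05 and -0.87. Nearest to Dppa4 were Ccdc86 at 0.027 and Lta4h at 0.029, and nearest to L1td1 were Tmem64 at 0.0082 and Rnf115 at 0.025. Dppa5a had no close match, since Ldha at 0.29 and Rpl19 at 0.34 were the nearest and differed by only -0.10 and -0.048.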

How the data were processed

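RNA of 1 culture per condition was hybridised to whole-transcript oligonucleotide arrays, per the labels' protocols. The authors deposited 1 log2 value per probeset and array, made with Affymetrix Expression Console and RMA per the submitters' processing notes. No version, build or annotation release is given in the sources used here. RMA corrects background, equalises the arrays and summarises probes, which hides any change common to most transcripts. Of 35556 probesets, 21789 were assigned to 1 gene by the platform annotation, 1621 to several and 12146 were not listed, and 0 shared probesets listed a member. A gene's value was the mean of its probesets. The filter was a higher value of at least 6.48, and calls needed a 2-fold difference. Gene order came from RefSeq genes of GRCm38.p6, and probesets were placed by the nearest named identifiers on either side. Members, lists and markers were chosen with earlier results of these data known. The text names the members, the nearest measured gene on either side, the 2 genes nearest in value over both arrays, called list genes or otherwise the 3 passing genes of largest difference, and the induced factors. Genes outside this rule are marked, except where a list had no passing gene. Steps were tested on simulated data. Alternatives were other filters, loess centring, quantile normalization, an offset of 32, the brightest probeset, single probesets and a 1.5-fold threshold. Tools were pandas 2.3.3 and NumPy 2.4.6 under Python 3.11.15, with statsmodels 0.14.6 for loess and matplotlib 3.10.9 for figures.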

Additional observations from a re-analysis of the deposited data

How the results depend on the processing

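Each member kept its direction under loess centring, quantile normalization, the offset of 32, the brightest probeset and single probesets. Dppa2 was at -0.75, under 2-fold, by its brightest probeset, which is the probeset between Dntt and Lcor. The other members kept their side of the 2-fold threshold. With the offset, 66 genes in place of 103 were called higher and 49 in place of 86 lower, and with a 1.5-fold threshold 363 and 425 were. Of the list genes, 1 was called higher and 14 lower at 1.5-fold, against 0 and 5 at 2-fold. Over members passing the filter (an alternative chosen after seeing the data), the 2-cell stage list left 1 gene with a median of -0.68. The KHDC-OOEP and maternal complex list left 4 genes with a median of -0.61. Filters on a higher value of at least 7, or on both values at or above the table median, gave the same medians. In the KHDC-OOEP and maternal complex list these stricter filters also dropped Khdc3, so fewer than 4 genes were left. No paired analysis was possible because each group has 1 array. With 1 array per condition, no replicate could be left out, and signal near the bottom of the scale limits Dppa3 and the Tcl1b genes.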

Other observations

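The gap between the Dppa2 probesets can be set beside other genes of the same kind. In 227 genes, 1 probeset had flanking probesets on the chromosome of the gene, the other had flanking probesets on another chromosome, and both passed the filter. The differences of such a pair lay a median of 0.063 apart on the log2 scale. The probeset at the locus of the gene differed at least 2-fold in 7 of the 227. The one elsewhere also did so in the same direction in 1 of these 7, Bnip3, with -1.19 at its locus and -2.41 elsewhere. In the other 6 the value elsewhere had the same sign and a smaller size. Dppa2 had -1.40 and -0.75, the ETS factor gene Etv1 had -1.55 and -0.91, and the lactate dehydrogenase gene Ldhb had -1.36 and -0.97. Calcoco2 had -1.29 and -0.24, Ciart had -1.04 and -0.20, and Eif4e1b, a translation factor of oocytes, had 1.06 and 0.23. The 7 were chosen by the size of the value at the locus. Over all 227, the value elsewhere was smaller in size in 119.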
